A study of Mus musculus with 4 samples.

Results

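The mitochondrial ribosomal protein genes are the genes with mouse symbols that begin with Mrpl or Mrps followed by a number. They were taken from the gene name column of the deposited expression table of mammary gland RNA, and where a name had several rows the row with the highest mean level was kept. This gave 76 genes of 22479 gene names in 30506 rows. Poly(A) RNA was sequenced from mammary glands of 4 mice aged 2 months on a mixed 129SV::FVB/N::C57BL/6 background, 2 of them miR-21+/+ (wild type) and 2 miR-21-/-. The miR-21-/- animals lack the microRNA miR-21 in every tissue, so that epithelium, fat pad, vessels and blood cells of the gland all carried the deletion. The table holds 1 value per genotype and gene, which the authors made from both mice, in FPKM (fragments mapped to a gene, scaled to its exon length and to all mapped fragments). No spread between mice can therefore be given and no test was possible, and every ratio here is a description of 2 pooled values.

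Mitochondria carry a small genome of their own, and the messenger RNAs of that genome are translated inside the organelle by a dedicated ribosome, the mitoribosome. Its products are core subunits of the respiratory chain and the ATP synthase, which work together with many subunits imported from the cytosol. The ribosomal RNAs of the mitoribosome come from the mitochondrial genome, but all of its proteins are encoded in the nucleus, made on cytosolic ribosomes and imported. Proteins of the large subunit carry the names Mrpl and those of the small subunit mostly Mrps. Many have a counterpart in the bacterial ribosome, and the rest were added in the mitochondrial lineage. Fat cells, muscle and secretory epithelium all depend on mitochondria, and a mammary gland at this age is a branched epithelium within a fat pad, so the RNA holds a mixture of these cells.

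The regulatory sequence in front of these genes is shown first, because letters for several well known regulators of nuclear genes for mitochondria recur in it. Promoter windows of 300 bases, from 250 bases before to 50 bases after the annotated start, were available for 67 of the 76 genes from the RefSeq promoter table of build GRCm38.p6, and the windows printed here were each found whole and at a single place in the NCBIM37 (mm9) genome, the build of the expression table. Capitals mark the matches on either strand to GCGCANGCG, the core recognised by the transcription factor NRF1, to CCGGAAGT, recognised by ETS factors such as GABP, or to AAGATGGCG, recognised by YY1. Mrpl12, with an NRF1 match, lies at chr11:120345701-120346000 on the plus strand. Mrps26, with overlapping NRF1 matches and an ETS match, lies at chr2:130389243-130389542 on the plus strand. Mrps27, with an ETS and a YY1 match, lies at chr13:100114491-100114790 on the plus strand. Mrps11, with a YY1 match, lies at chr7:85927767-85928066 on the plus strand, in a window within the annotated span of its oppositely transcribed neighbour Mrpl46. Mrps30 at chr13:119176010-119176309 and Mrps12 at chr7:29526791-29527090, both on the minus strand, hold none of the 3 and are shown because they were the members in rows of their own with the lowest and the highest ratio between genotypes.
Mrpl12: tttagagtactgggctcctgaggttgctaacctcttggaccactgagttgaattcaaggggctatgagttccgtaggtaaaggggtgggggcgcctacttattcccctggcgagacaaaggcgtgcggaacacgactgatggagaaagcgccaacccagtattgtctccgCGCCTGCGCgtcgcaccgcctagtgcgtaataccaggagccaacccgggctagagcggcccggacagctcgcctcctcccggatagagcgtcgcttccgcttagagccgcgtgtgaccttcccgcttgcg
Mrps26: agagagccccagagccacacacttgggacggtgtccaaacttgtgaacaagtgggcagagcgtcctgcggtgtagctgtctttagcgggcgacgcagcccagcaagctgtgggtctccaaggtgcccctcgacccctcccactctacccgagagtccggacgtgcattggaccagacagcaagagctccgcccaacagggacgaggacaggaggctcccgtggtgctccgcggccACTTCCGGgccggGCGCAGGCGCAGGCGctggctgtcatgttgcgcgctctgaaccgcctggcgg
Mrps27: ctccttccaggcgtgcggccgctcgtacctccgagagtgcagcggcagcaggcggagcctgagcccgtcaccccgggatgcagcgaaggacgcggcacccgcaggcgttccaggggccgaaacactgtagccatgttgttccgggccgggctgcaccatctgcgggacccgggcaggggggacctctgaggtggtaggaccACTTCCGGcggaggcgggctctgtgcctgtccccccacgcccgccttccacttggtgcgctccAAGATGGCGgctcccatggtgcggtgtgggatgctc
Mrps11: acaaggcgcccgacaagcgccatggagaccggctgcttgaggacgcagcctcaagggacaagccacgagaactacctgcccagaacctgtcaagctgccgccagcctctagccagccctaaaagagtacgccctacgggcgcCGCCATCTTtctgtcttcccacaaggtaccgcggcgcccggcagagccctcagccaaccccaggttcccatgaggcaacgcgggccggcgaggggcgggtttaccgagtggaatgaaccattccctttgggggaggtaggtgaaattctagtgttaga
Mrps30: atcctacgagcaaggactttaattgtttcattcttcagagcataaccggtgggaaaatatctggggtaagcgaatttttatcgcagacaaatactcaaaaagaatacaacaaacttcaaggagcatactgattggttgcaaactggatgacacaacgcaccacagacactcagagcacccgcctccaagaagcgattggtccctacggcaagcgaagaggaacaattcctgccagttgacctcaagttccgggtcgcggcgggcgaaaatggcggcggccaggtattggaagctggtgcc
Mrps12: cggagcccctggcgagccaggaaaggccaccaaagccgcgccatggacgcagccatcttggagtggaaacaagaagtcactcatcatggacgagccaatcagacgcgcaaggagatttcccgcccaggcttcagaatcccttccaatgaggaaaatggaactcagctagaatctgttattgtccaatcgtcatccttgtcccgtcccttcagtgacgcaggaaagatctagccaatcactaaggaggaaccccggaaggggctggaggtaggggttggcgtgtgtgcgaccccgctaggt

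The NRF1 letters were present in 15 of the 67 members with a promoter window (22.4%). The shares were 14.4% of 9419 named genes over 1 FPKM with a window and 7.03% of all 27025 genes with one. A gene counted where any of its windows held the letters, and 64 of the 67 members had 1 window. The ETS letters were found in 12 (17.9%, against 8.37% and 4.31%). The YY1 letters were found in 8 (11.9%, against 3.33% and 1.64%). At least 1 of the 3 was present in 33 members (49.3%), against 23.7% of named genes over 1 FPKM with a window. Both Mrps26 and Mrps27 held more than 1 of them. TATAAA, the letters of the TATA box, was present in 5 members (7.46%), against 9.13% of named genes over 1 FPKM with a window. The median GC content of the members' windows was 58.0%, against 60.7%. These are matches of letters in reference sequence, not measured binding.

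In wild-type glands the 76 genes had a median level of 21.6 FPKM, and in miR-21-/- glands of 19.3 FPKM. FPKM is scaled by exon length, so a comparison between genes also depends on the annotated length used. The mean of both genotypes spanned 19.3-fold from the lowest to the highest member. All 76 had a mean over 1 FPKM, as did 13636 of the 22479 names. The order of levels was nearly the same in both genotypes (Pearson r = 0.991 across the 76 genes, on log2 FPKM; genes are not independent replicates).

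Pairs of FPKM values give wild type first and miR-21-/- second, with the log2 ratio of miR-21-/- over wild type in parentheses. The highest member was Mrps21, a small subunit protein with a bacterial counterpart, at 69.1 FPKM in wild-type and 61.5 FPKM in miR-21-/- glands. Mrpl52, a large subunit protein with no bacterial counterpart, came next at 62.6 and 58.6 FPKM, and had a second row at 1.48 and 1.45 FPKM. The row with Mrps6 ranked after it at 47.5 and 66.8 FPKM, but that row also carries Slc5a3. At the other end Mrpl19, a large subunit protein, was at 3.60 and 3.15 FPKM. Mrpl17, which lies near the exit of the tunnel through which the new protein leaves, was at 6.19 and 5.20 FPKM. Mrps25 of the small subunit was at 6.06 and 5.80 FPKM. Genes for parts of the same particle thus had FPKM values far apart in both genotypes. The longest annotated coding transcript was 488 nt for Mrps21 and 412 nt for Mrpl52. It was 5000 nt for Mrpl19, 3848 nt for Mrpl17 and 6073 nt for Mrps25. The part of length in this order of levels was not tested.

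**Figure D1:**
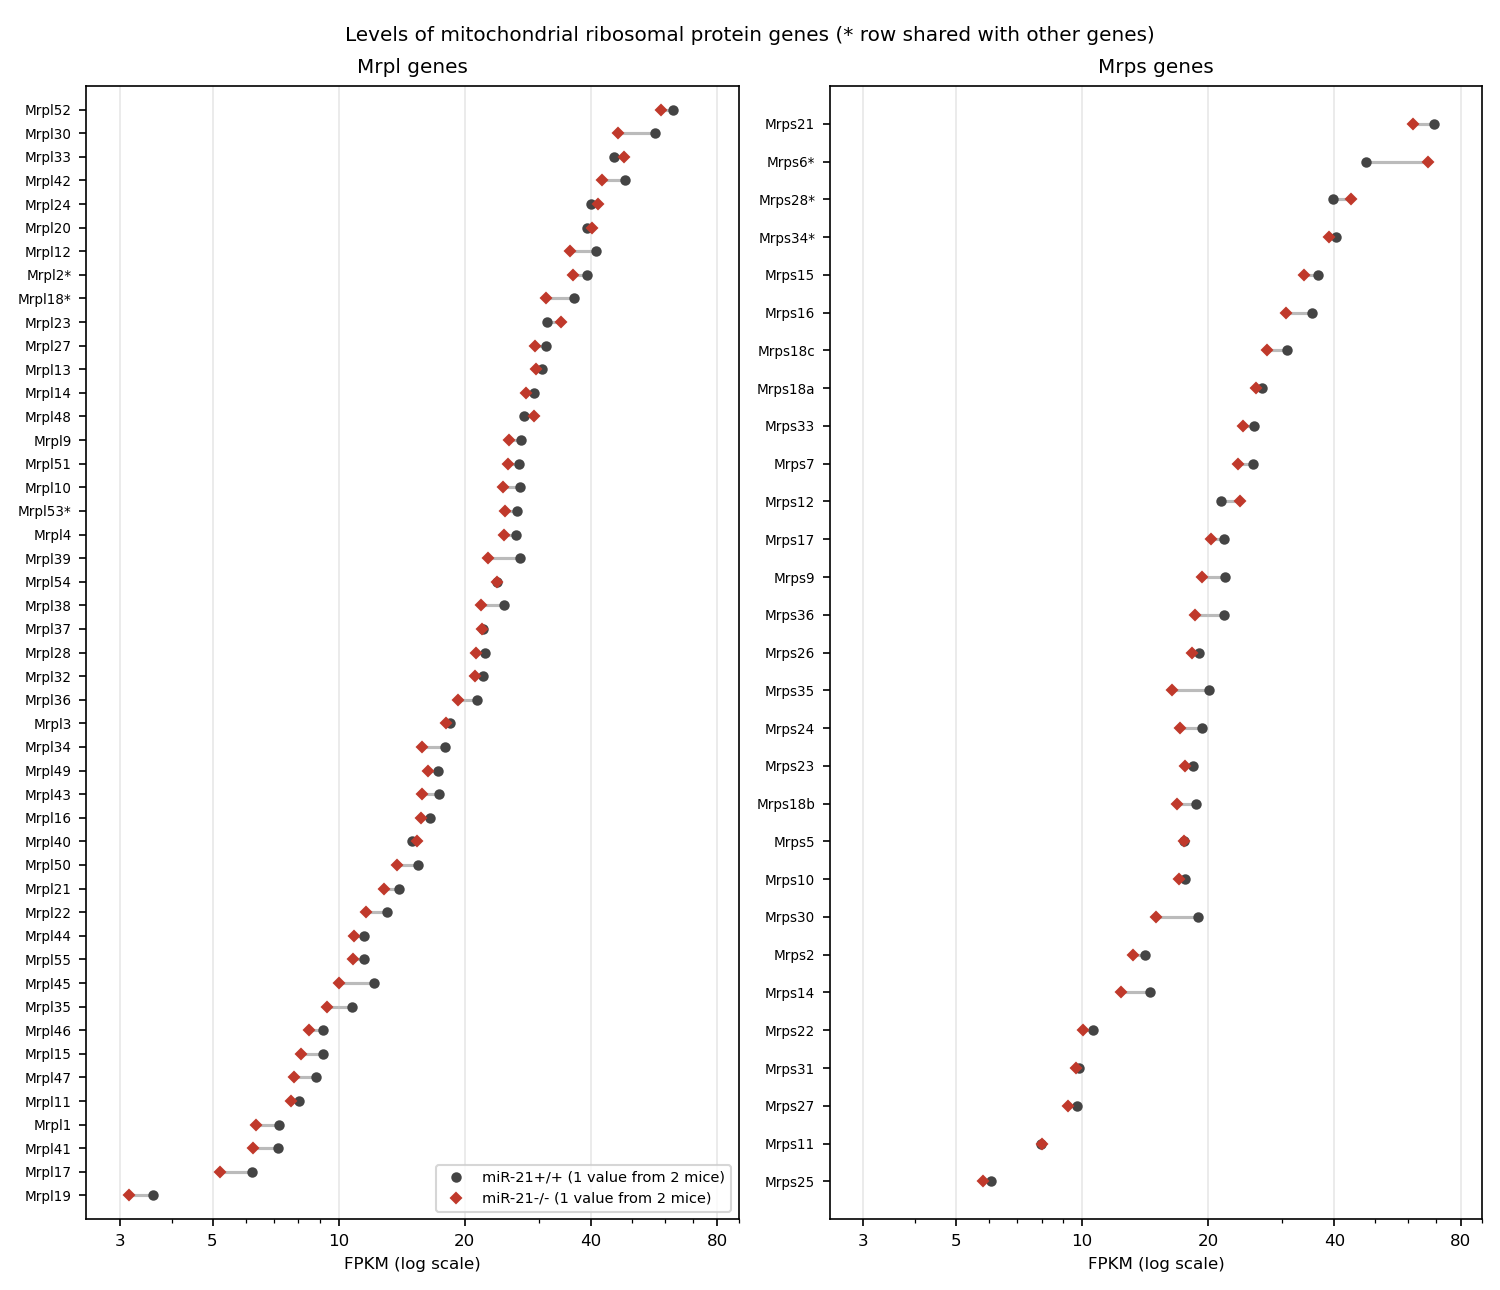
Level of each mitochondrial ribosomal protein gene in FPKM on a log axis, for Mrpl genes and Mrps genes, with miR-21+/+ as circles and miR-21-/- as diamonds. Each symbol is 1 value made from 2 mice, so there are no error bars, and asterisks mark rows shared with other genes. For 65 of the 76 genes the diamond lies left of the circle, by small steps compared with the 19.3-fold range between genes.

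Between genotypes the family differed little and mostly in 1 direction. On the deposited scale 65 of the 76 genes were lower in miR-21-/- glands and 11 were higher, and 37 were lower when both genotypes were set to equal FPKM sums over rows with a gene name. The median log2 ratio of miR-21-/- over wild type was -0.10 (SD over genes 0.12, quartiles -0.18 to -0.05). Over all 13636 named genes above 1 FPKM the median was -0.03, with quartiles of -0.17 and 0.11, and 55.6% were lower. Equal sums over named rows shift every log2 ratio by 0.10, and equal sums over all rows, unnamed loci included, by -0.63. A direction given here for a single gene or a group therefore holds on the deposited scale, and turns under 1 of these scalings where the ratio is smaller than the shift and of the opposite sign. The member median was 0.07 below that of all named genes on the log2 scale, and 63 of the 76 lay below the all-gene median. The summed level of the family was 1794 FPKM in wild-type and 1701 FPKM in miR-21-/- glands. Without a value per mouse, whether a difference of this size exceeds the spread between animals cannot be told.

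In place of a test, a limit of 0.32 on the log2 scale was set, which is a ratio of 5 to 4. The Mrps6 row was the 1 member past that limit upward in miR-21-/- glands, and Mrps30 the 1 member past it downward. Mrps30, at -0.33, was no longer past the limit with a pseudocount of 1 (-0.316, against a limit of 0.322), with equal sums over named rows (-0.24) or with the median of named genes set to 0 (-0.31). Over all named genes 10.3% were past the limit upward and 13.6% downward. Among 10146 named genes within the members' range of levels, 875 were past the limit upward and 1041 downward. Ratios within 0.1 of 0 on the log2 scale were found for 37 members (48.7%), against 38.9% of all named genes and 43.1% of those in the same range of levels.

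**Figure D2:**
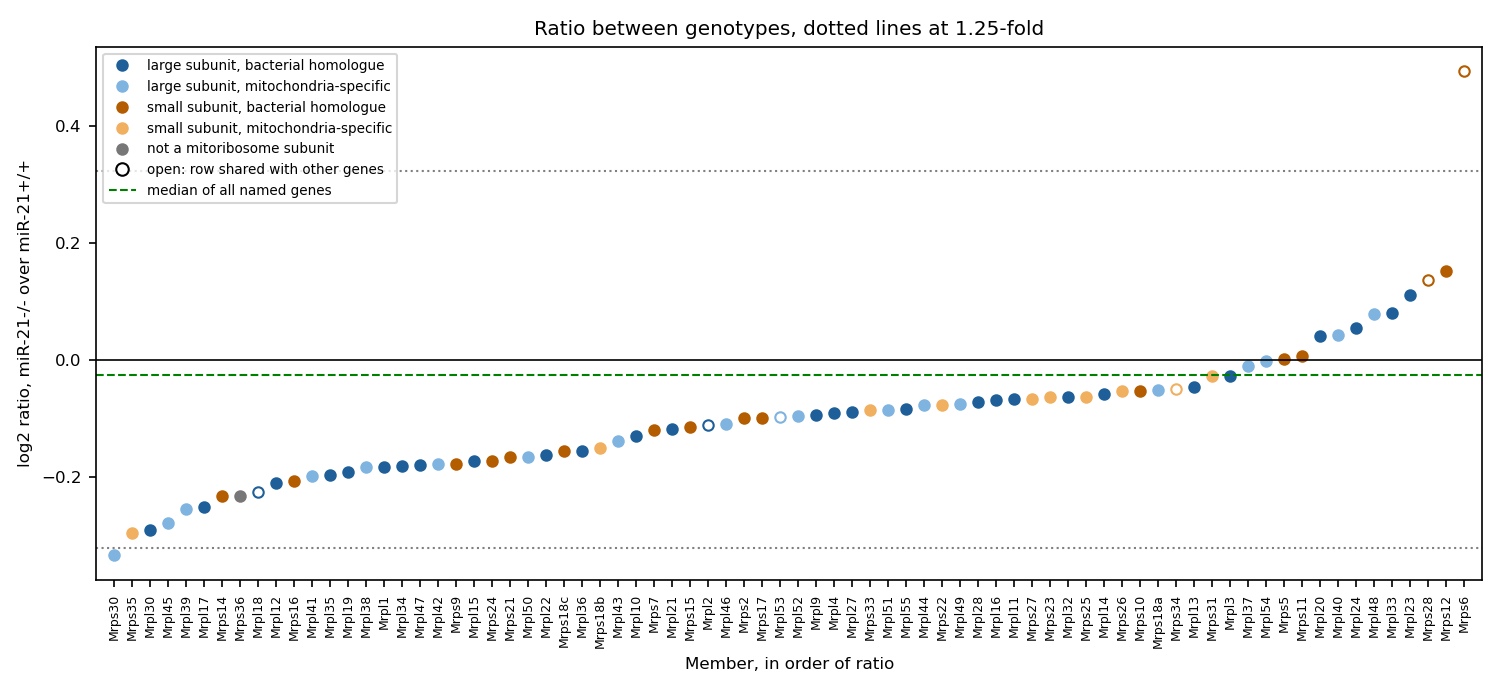
Log2 ratio of miR-21-/- over miR-21+/+ FPKM for the 76 genes in order of ratio, coloured by subunit and by class (bacterial homologue or mitochondria-specific), with open circles for rows shared with other genes. Dotted lines mark the limit of 0.32 in either direction, the dashed line the median of all named genes at -0.03, and only Mrps30 at -0.33 and the shared Mrps6 row at 0.49 lie outside the dotted lines.

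The large subunit joins amino acids into protein. Its 49 members had a median log2 ratio of -0.10, or 0.00 with equal sums over named rows, with 43 lower on the deposited scale, and their summed level was 1153 FPKM in wild-type and 1078 FPKM in miR-21-/- glands. The 30 members classed by a bacterial homologue and the 19 classed as mitochondria-specific, Mrps18a among them, had the same rounded median, -0.10. The lowest ratio of the whole family belonged here. Mrps30, an apoptosis-related protein that carries a small subunit name but sits in the large subunit, was at 18.9 FPKM in wild-type and 15.0 FPKM in miR-21-/- glands, a log2 ratio of -0.33. Its gene lies on chromosome 13 from 119168917 to 119176059 on the minus strand (NCBIM37).

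Next among large subunit genes was Mrpl30, one of the most abundant members, at 56.7 and 46.4 FPKM (-0.29). Mrpl45, which sits at the tunnel exit and faces the inner membrane into which new chains are inserted, was at 12.1 and 10.004 FPKM (-0.28). Mrpl39, a mitochondria-specific protein, was at 27.1 and 22.7 FPKM (-0.26). All of these were within the limit. Mrpl17 had a log2 ratio of -0.25 and Mrpl19 of -0.19. Mrpl41, which has also been described as a partner of the apoptosis regulator Bcl-2, was at 7.18 and 6.26 FPKM (-0.20).

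Large subunit genes with a higher value in miR-21-/- glands were few. Mrpl23, at the tunnel exit, was at 31.5 and 34.0 FPKM (0.11). Mrpl33 was at 45.4 and 48.0 FPKM (0.08). Mrpl48, of the central protuberance that faces the small subunit, was at 27.7 and 29.2 FPKM (0.08). Mrpl24, Mrpl20 and Mrpl40 were higher by 0.05, 0.04 and 0.04 on the log2 scale. Mrpl3 and Mrpl44, both mutated in human mitochondrial disease, had log2 ratios of -0.03 and -0.08, and the first of them was at 18.4 and 18.1 FPKM.

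Within the large subunit, groups by position were formed after the values were seen and are given as description. On the deposited scale 65 of the 76 members (85.5%) were lower. So were all 4 stalk genes, whose proteins bind the translation factors or guide the leaving transfer RNA. The median of these 4 was -0.16. Among them Mrpl12, the mobile stalk protein that has also been reported to bind the mitochondrial RNA polymerase, was at 41.2 and 35.6 FPKM (-0.21). Its partner at the stalk base, Mrpl10, was at 27.0 and 24.7 FPKM (-0.13). Mrpl11 was at 8.05 and 7.69 FPKM (-0.07), and Mrpl1, of the opposite stalk, at 7.20 and 6.34 FPKM (-0.18). Of 6 tunnel exit genes 4 were lower (median -0.17), and of 7 central protuberance genes 5 were lower (median -0.09). Whether such groups differ from each other or from the family could not be tested.

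The small subunit binds messenger RNA and decodes it. Its 26 members had a median log2 ratio of -0.08, or 0.02 with equal sums over named rows, with 21 lower on the deposited scale, and summed to 620 FPKM in wild-type and 604 FPKM in miR-21-/- glands. The 16 with a bacterial homologue had a median of -0.11 with 11 lower, and the 10 classed as mitochondria-specific, Mrps18b among them, of -0.07 with 10 lower. Mrps35, mitochondria-specific, had the lowest ratio of the subunit at 20.1 and 16.4 FPKM (-0.30), just within the limit. Mrps14 was at 14.5 and 12.4 FPKM (-0.23). Mrps16 and Mrps22, each mutated in human mitochondrial disease, had log2 ratios of -0.21 and -0.08.

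The highest ratio in a row of its own was that of Mrps12, a protein of the decoding centre, at 21.5 and 23.9 FPKM (0.15). Mrps5 and Mrps24, which line the channel that the messenger RNA enters, were at 17.5 and 17.5 FPKM (0.00) and at 19.3 and 17.1 FPKM (-0.17). Mrps11 was at 7.97 and 8.003 FPKM (0.01). The decoding region genes therefore lay on both sides of 0.

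Mammals have a trio of homologues of a single bacterial small subunit protein, Mrps18a, Mrps18b and Mrps18c. In the classes used here Mrps18c stands with the bacterial homologues, and the other two, although related in sequence, stand with the mitochondria-specific proteins because they occupy other positions in the particle. Mrps18a, which is built into the large subunit, was at 26.9 and 26.0 FPKM (-0.05). Mrps18b was at 18.7 and 16.8 FPKM (-0.15). Mrps18c was at 30.8 and 27.6 FPKM (-0.16). Mrps36 carries the family name but is now known as a subunit of the 2-oxoglutarate dehydrogenase complex of the citric acid cycle, and it was at 21.8 and 18.6 FPKM (-0.23).

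Not every row measures a single gene. Cuffdiff reports 1 value for a cluster of overlapping genes, and 6 members stood in rows with several names. The Mrps6 row also names Slc5a3, the myo-inositol transporter gene, whose transcript shares the locus, and its log2 ratio of 0.49, which was -0.14 with equal sums over all rows, cannot be divided between the 2 genes. Mrps28 shared a row with Tpd52 (39.8 and 43.7 FPKM, 0.14). Mrps34 shared one with Nme3 and Spsb3 (40.3 and 38.9 FPKM, -0.05). The other shared rows were Mrpl18 with Acat3 (36.5 and 31.2 FPKM, -0.23), Mrpl2 with Cul7 (39.1 and 36.2 FPKM, -0.11) and Mrpl53 with Ccdc142 (26.7 and 24.9 FPKM, -0.10, with a second row at 1.19 and 0.995 FPKM). With these and Mrpl52 set aside, 69 members remained, 60 of them lower, and their median was still -0.10. In 53 members with no other row at the locus, 46 were lower, with a median of -0.10.

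The members were scattered over 17 chromosomes, with at most 10 on a single one, so they were no gene cluster. They were often arranged head to head with another gene. Of the 76 members, 28 (36.8%) had the start of a protein-coding gene on the opposite strand within 1000 bp of their own start, against 1954 of 12978 named genes over the minimum with an annotated coding gene (15.1%). In 24 such pairs with a measured neighbour outside the family, the neighbours' median log2 ratio was 0.01, from -0.42 to 0.34, with 12 lower, and the members' was -0.08. Mrpl30 (-0.29) faces Mitd1 (0.07) across 66 bp. Mrps12 (0.15) faces Sars2, the mitochondrial seryl-tRNA synthetase gene, across 171 bp, and Sars2 was at 4.30 and 3.74 FPKM (-0.20). Mrpl47 (-0.18) faces Ndufb5, a complex I subunit gene, whose log2 ratio was -0.33. In the pairs of Mrpl30 and Mrps12 the member and its neighbour thus had ratios of opposite sign. Mrpl46 (9.19 and 8.52 FPKM, -0.11) and Mrps11 (0.01) face each other within the family, with annotated starts that overlap by 412 bp. The library kit named does not mark the strand, so reads from the overlap of such a pair cannot be told apart.

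The presence of motif letters went with small differences in ratio. Members with the NRF1 letters had a median log2 ratio of -0.16 and those without of -0.09. Those with the ETS letters had a median of -0.08, against -0.11 without, and those with the YY1 letters of -0.11, against -0.10. Among the printed examples, Mrpl12 with an NRF1 match had a ratio of -0.21, and Mrps26 with overlapping NRF1 matches was at 19.0 and 18.3 FPKM (-0.05). Mrps27, an RNA-binding repeat protein of the small subunit with both ETS and YY1 letters, was at 9.72 and 9.28 FPKM (-0.07). These medians were not tested.

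The transcripts of the family are short. The longest annotated coding transcript of a member had a median length of 1163.5 nt (412 to 6073 nt), against 2941 nt over all named genes with a length, and 65 of the 76 were shorter than that. Ratios moved slightly with length across the whole table. In the shortest 10% of genes (up to 1206 nt) the median log2 ratio was -0.06 with 62.0% lower, and in the longest 10% (from 6239 nt) it was 0.01. The 39 members within the shortest 10% had a median of -0.09. The part of length in the family's median was not tested.

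**Figure D3:**
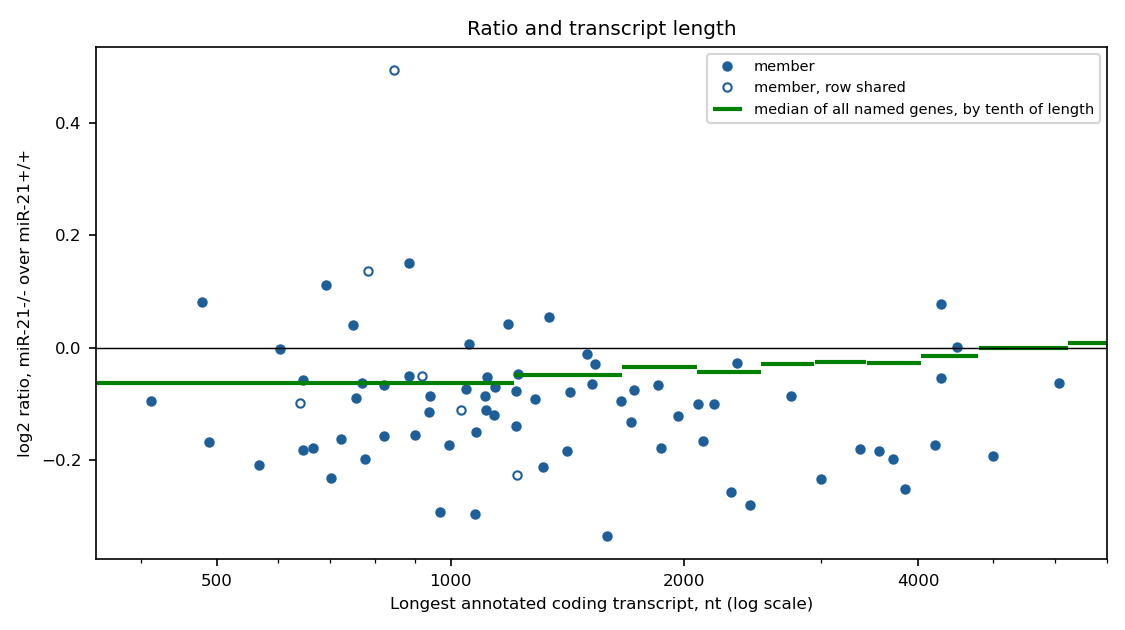
Log2 ratio of miR-21-/- over miR-21+/+ FPKM against the longest annotated coding transcript in nt on a log axis, with 1 circle per mitochondrial ribosomal protein gene and open circles for shared rows. Bars give the median of all named genes in 10 bins of length, from -0.06 in the shortest to 0.01 in the longest, and most circles lie below them.

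Mitoribosome proteins that do not carry the family name gave a similar picture. In miR-21-/- glands all 7 measured had the lower value, and their median log2 ratio was -0.08, or 0.02 with equal sums over named rows. Among them Chchd1 stood in a row shared with Fut11 and Sec24c (68.7 and 67.0 FPKM, -0.04), and Ict1 was nearly equal (-0.003). Ptcd3, an RNA-binding repeat protein of the small subunit, was at 16.7 and 14.1 FPKM (-0.24). Mrp63 of the large subunit was at 6.12 and 5.26 FPKM (-0.22). Dap3, a GTP-binding small subunit protein linked to cell death, was at 10.04 and 9.52 FPKM (-0.08). None was past the limit.

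Factors that work with the mitoribosome were spread around the all-gene median. Of 16 mitochondrial translation factors 9 were lower, with a median of 0.00 and none past the limit. Gfm2, which helps to recycle the ribosome after termination, was at 11.1 and 9.20 FPKM (-0.27), and Letm1, an inner membrane protein, at 18.3 and 15.6 FPKM (-0.23). Tsfm, the exchange factor of the elongation factor, was at 9.40 and 10.5 FPKM (0.16), and Mtrf1l, a release factor, at 2.24 and 2.45 FPKM (0.13).

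Of 18 genes listed as mitochondrial aminoacyl-tRNA synthetases, the enzymes that charge transfer RNA, 13 were lower (median -0.06, or 0.04 with equal sums over named rows). The list includes Qrsl1 (0.04), a subunit of an amidotransferase rather than a synthetase. Yars2 was at 7.13 and 5.78 FPKM (-0.30) and Fars2 at 10.9 and 9.44 FPKM (-0.21). Cars2 was at 9.48 and 10.1 FPKM (0.09). The exception was Lars2, the leucyl enzyme, at 37.4 FPKM in wild-type and 148 FPKM in miR-21-/- glands, a log2 ratio of 1.98, the only member of that list past the limit. Of 21 assembly and rRNA modification factors 15 were lower (median -0.06, or 0.04 with equal sums over named rows). Mterfd2, a factor that brings an rRNA methyltransferase to the mitoribosome, was at 11.4 and 16.5 FPKM (0.53) and was the only one of them past the limit. Wbscr16 was at 4.57 and 5.18 FPKM (0.18), Ftsj2 at 3.70 and 3.27 FPKM (-0.18) and Mrm1 at 3.72 and 3.34 FPKM (-0.16).

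The nuclear genes for the respiratory chain and the ATP synthase had a median further from 0 than the members. Among 82 measured nuclear genes for these subunits, the median log2 ratio was -0.28, or -0.18 with equal sums over named rows. The value in miR-21-/- glands was below that in wild type for 78. Past the limit were 21 downward (25.6%, against 13.6% of all named genes) and 1 upward (1.22%, against 10.3%). The list summed to 11330 FPKM in wild-type and 9335 FPKM in miR-21-/- glands. The medians by complex were -0.27 for complex I (37 genes), -0.31 for complex II (4 genes) and -0.31 for complex III (9 genes). They were -0.31 for complex IV (16 genes) and -0.20 for the ATP synthase (16 genes). The complex I genes are those with Nduf symbols, among them Ndufa4 (-0.24), now placed in complex IV, and its relative Ndufa4l2 (0.10). The lowest ratios were those of Cox7a1 (23.0 and 13.2 FPKM, -0.80) and Cox8b (122.5 and 77.6 FPKM, -0.66), complex IV subunits of muscle and brown fat. The highest was that of Cox6a2 (6.29 and 12.3 FPKM, 0.97), the muscle form of another complex IV subunit, ahead of Cox4i2 (1.87 and 2.09 FPKM, 0.16).

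Genes for proteins of the cytosolic ribosome, which makes the mitoribosomal proteins, showed the opposite sign on the deposited scale. Their median log2 ratio over 79 genes was 0.09, with 72 above 0, 7 below it and none past the limit, and that median was 0.19 with equal sums over named rows and -0.54 with equal sums over all rows. The range was from -0.08 for Rps2 to 0.26 for Rps14. Both ribosomes thus lay close to the all-gene median of -0.03, on either side of it, with 63 of 76 mitochondrial members below it and 3 of 79 cytosolic ones.

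**Figure D4:**
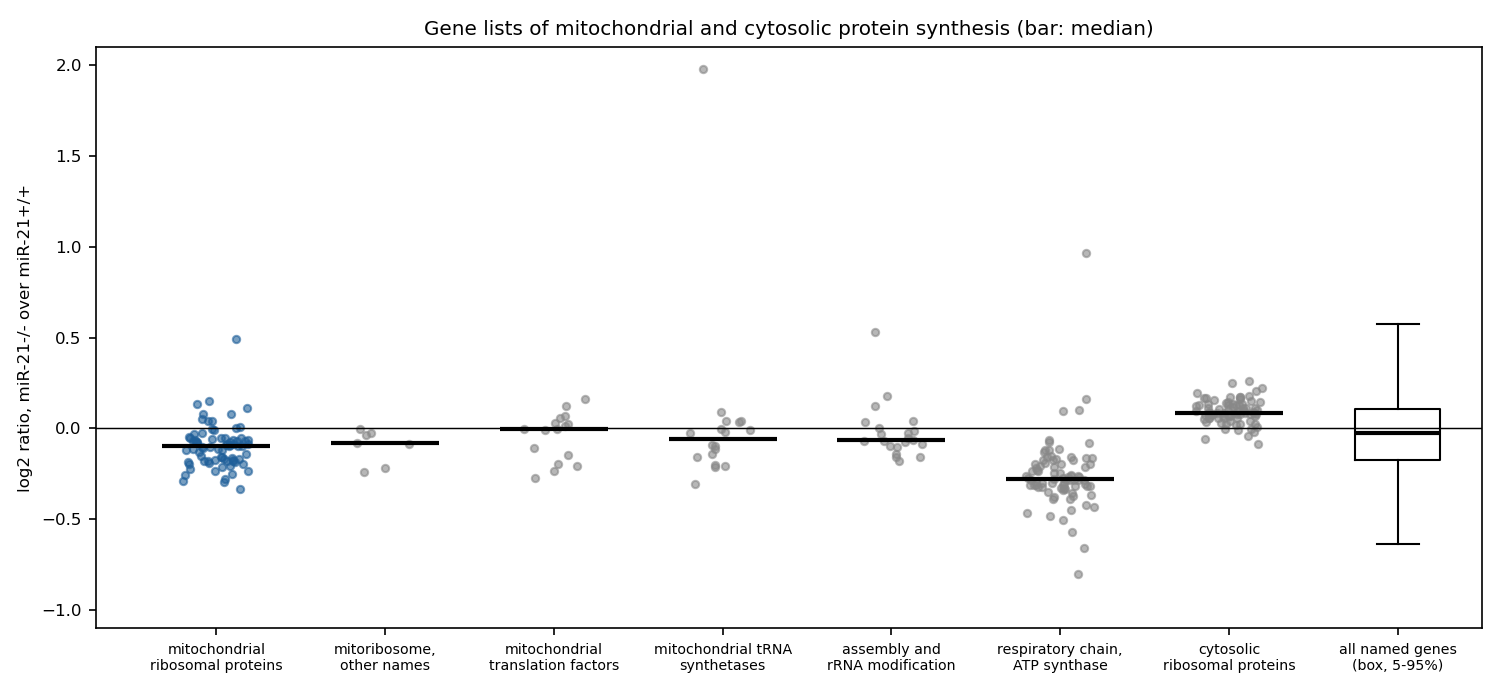
Log2 ratio of miR-21-/- over miR-21+/+ FPKM for the genes of each list with a mean over 1 FPKM, 1 circle per gene, with a bar at each list's median, and for all named genes as a box (quartiles, with whiskers at the 5th and 95th percentiles). The mitochondrial ribosomal proteins have a median of -0.10, the respiratory chain and ATP synthase list of -0.28 and the cytosolic ribosomal proteins of 0.09, and the isolated circle near 2 is Lars2.

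Regulators of nuclear genes for mitochondria were fixed as a list of 12, of which 9 were lower (median -0.02, or 0.07 with equal sums over named rows). The coactivators Ppargc1a (3.87 and 1.42 FPKM, -1.44) and Ppargc1b (3.82 and 2.36 FPKM, -0.70) were the 2 past the limit. The related coactivator Pprc1 was at 7.47 and 9.14 FPKM (0.29). The DNA-binding factors whose letters were searched in the promoters differed little. Nrf1 was at 6.77 and 7.30 FPKM (0.11), Gabpa at 14.9 and 14.1 FPKM (-0.08) and Yy1 at 26.1 and 25.5 FPKM (-0.03). Esrra, in a row shared with Prdx5, had a log2 ratio of -0.10, Gabpb1 of 0.00 and Myc of 0.05. Of the proteins that transcribe the mitochondrial genome, Tfam was at -0.01, Polrmt at -0.01 and Tfb2m, at 17.4 and 14.7 FPKM, at -0.24 on the same scale.

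Markers of the cell types in the gland differed between the genotypes to unequal degrees. Of 8 adipocyte markers 7 were lower, with summed levels of 18268 FPKM in wild-type and 13892 FPKM in miR-21-/- glands. Most of that sum is Fabp4 (7677 and 5523 FPKM) and Cfd (6946 and 5547 FPKM). Lep was higher (27.7 and 67.9 FPKM, 1.29), the largest change of the adipocyte list. All 4 brown fat markers over 1 FPKM were lower, and the list summed to 241 and 119 FPKM, with Ucp1, the uncoupling protein that defines brown fat, at 43.3 and 8.48 FPKM. Cox7a1 and Cox8b stand both in that list and in the respiratory chain list. In the opposite direction, all 6 luminal markers (597 and 816 FPKM), all 5 basal markers (298 and 481 FPKM) and all 6 skeletal muscle markers (993 and 1612 FPKM) were higher in miR-21-/- glands, with log2 ratios of the sums of 0.45, 0.69 and 0.70, of which the luminal one turns with the shift of -0.63 from equal sums over all rows. Most of the basal sum is Acta2 (222 and 341 FPKM). All 6 T cell markers were lower (36.9 and 8.36 FPKM), as were all 5 proliferation markers (35.9 and 22.4 FPKM). All 5 B cell markers were lower (97.4 and 52.7 FPKM, median log2 ratio -3.16), but most of that sum is a row that Cd79a shares with Arhgef1 (70.3 and 48.3 FPKM). All 4 macrophage markers were lower on the deposited scale (366 and 348 FPKM, median -0.15), and most of that sum is a row that Cd68 shares with Eif4a1 and Senp3 (254.8 and 251.5 FPKM). Cd163 had a log2 ratio of -0.45, Emr1 of -0.26 and Csf1r of -0.04. Of 4 endothelial markers 2 were lower, with a median of 0.03. No marker was at 0 in these lists. In bulk tissue, fewer cells of a type and less RNA per cell cannot be told apart, and the part of cell composition in the members' ratios was not tested. The targeted gene could not be checked, since Mir21 shares a row with its host gene Vmp1 (42.5 and 68.2 FPKM) that does not measure the mature microRNA.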

How the data were processed

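Single-end reads of poly(A) RNA came from mammary glands of 2 miR-21+/+ and 2 miR-21-/- mice. After CASAVA, the authors used TopHat for alignment to mm9 and Cufflinks for FPKM. The deposited table, written by Cuffdiff, holds 1 FPKM value per genotype and locus for both mice together. The annotation, tool versions and normalization options were not given in the sources used here. Other columns of that table hold the authors' fold changes, test statistics, p-values and q-values, and were not used.

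The log2 ratio of the miR-21-/- over the miR-21+/+ value was taken with no pseudocount, for names with a mean over 1 FPKM, with 1 row per name. A limit of 0.32 on the log2 scale (5 to 4) was used in place of a test. Depth is unknown: at most 15.4% of low values came near whole multiples of a single read (tolerance 0.05), against 10% for an even spread. Where a name had several rows, the row with the highest mean was used.

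Members and gene lists were chosen with earlier results of these data known. Genes named were the 6 largest differences each way among members over 5 FPKM, the 3 highest and 3 lowest members, members past or just outside the limit, members with shared or several rows, members with a role or homology given in the text, and the 2 largest differences each way in a list. Groups by position in the ribosome and the complexes were formed after values were seen, as was the naming of further members with a role in them.

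Positions and transcript lengths came from the Gencode annotation of NCBIM37 and promoters from RefSeq. No promoter was matched for Mrps28, Mrps34, Mrpl13, Mrpl4, Mrpl54, Mrpl38, Mrps35, Mrpl15 or Mrpl19. Only the counts past the limit and the median were tested on simulated data, with planted changes larger than the limit. All steps were run in Python 3.11.15 with numpy 2.4.6, pandas 2.3.3 and matplotlib 3.10.9. Alternatives were other pseudocounts (1 and 0.1), filters, scalings, fold limits and treatments of shared rows.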

Additional observations from a re-analysis of the deposited data

How the results depend on the processing

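Over 12 alternative settings, 207 values stayed, 47 moved and 1 reversed. To stay meant within 0.12 on the log2 scale, the SD over members, or within 1.5 times for counts. Only a named member past the limit could count as reversed, so other changes of sign count as moved or stayed. With equal sums over all rows Mrps12 moved from 0.15 to -0.48. The tolerance exceeds the shifts of 0.10 (equal sums over named rows) and 0.03 (median of named genes set to 0). No log2 ratio or median could therefore move under those settings. The counts of 1 member higher and 1 lower were the least stable. No member was past the limit downward with a pseudocount of 1, with equal FPKM sums over rows with a gene name, or with the median of named genes set to 0 (0 each). None was past it upward with shared rows left out, or with only members alone at their locus, a setting chosen after seeing the data (0 each). A limit of 1.5-fold gave 0 and 0, and 1.1-fold gave 2 higher and 29 lower. The shares of all named genes past these other limits were not computed, so the counts cannot be set against the whole table. With equal sums over rows with a gene name, 37 members were lower by any amount, against 65, and their median was 0.00. Equal sums over all rows, which include loci without a name (759295 FPKM in wild type and 1175603 FPKM without miR-21), shifted every ratio by -0.63. The share of all named genes past the limit under this shift was not computed, so counts of members past it say nothing particular to the family. The member median was then -0.73, with 0 higher and 75 lower, and the large and small subunit medians were -0.73 and -0.71. Lists gave -0.71 for mitoribosome proteins with other names, -0.63 for translation factors, -0.69 for synthetases, -0.69 for assembly factors, -0.65 for regulators, -0.91 for the respiratory chain and -0.54 for cytosolic ribosomal proteins. Mrps6 reversed to -0.14, and 25 other named members moved down by the same shift.

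No paired analysis was possible because both mice of a genotype share 1 value. Fits without 1 mouse and limma were not run for the same reason. Protein features were not analysed here. Depth, and with it counting error, is unknown.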

Other observations

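The mitochondrial genome itself, whose ribosomal and messenger RNAs the mitoribosome is built on and reads, was reported as a single row without a gene name (chromosome M, 6 to 16299). It was chosen after its values were seen. Its level was 6117 FPKM in miR-21+/+ and 4541 FPKM in miR-21-/- glands, a log2 ratio of -0.43. Ribosomal and messenger RNA are not separated in that row, and mitochondrial transcripts enter a poly(A) library to unequal degrees.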
